A study of Mus musculus with 20 samples.

Results

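The Notch receptors, ligands and targets followed here are the receptors Notch1, Notch2 and Notch3, the ligands Dll1, Dll4, Jag1 and Jag2, and the target genes Hes1, Hey1 and Nrarp. These 10 genes were taken by symbol from a table of 35240 gene symbols, and the values of all transcripts of a symbol were summed. Of the 10 genes, 9 had a mean value of at least 1 over the libraries and entered the tests across 13539 genes, while Hey1 fell below that limit. Their levels were measured in colonic organoids (colonoids), cultures grown from colon crypts in Matrigel, at days 1, 2, 3, 5 and 7 post-passage (DPP). WT cultures came from C57BL/6 mice, and Tnfr2-/- cultures from mice that lack TNFR2, a receptor for TNF encoded by Tnfrsf1b, in the whole body (strain B6.129S2-Tnfrsf1b tm1Mwm/J). Cultures of both genotypes were set up from colon crypts, grown in IntestiCult medium, passaged several times and passed through a mesh filter before seeding, without dissociation to single cells, and the labels name no added agent. There were 2 mice per genotype and 1 library per mouse and day, which gives 20 libraries in 10 groups of 2, and a replicate number within a genotype is taken here to name the same animal at every day. With 2 animals per genotype, differences between genotypes and between individual mice cannot be fully told apart.

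Notch signalling passes between cells in contact. A ligand of the Delta or Jagged family on one cell binds a Notch receptor on its neighbour, the receptor is cut first by the protease ADAM10 and then by gamma-secretase, and the freed intracellular part joins RBPJ in the nucleus to switch on genes such as Hes1 and Nrarp. In the intestine the transcriptional repressor HES1 holds down Atoh1, so that cells receiving the signal take the absorptive fate and cells that send it, with Dll1 and Dll4 on their surface, take the secretory fate. NRARP is a feedback inhibitor of the signal.

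Values are normalised TPM, that is transcript abundance scaled to the library (TPM) divided by a size factor for each library, and are therefore per length and comparable between genes. In each library between 13007 and 13469 genes reached a value of 1. All 10 epithelial markers were expressed, with summed values between 12332 and 21108, and so were all 10 fibroblast markers, with summed values between 1373 and 9683. Endothelial markers summed to at most 30.5 and immune markers to at most 48.4. Emcn was listed at 0 in all 20 libraries, and Cdh5, Kdr, Tek and Ptprc had means between 0.04 and 0.18. Tnfrsf1b was lower in Tnfr2-/- libraries (5.80 ± 2.84) than in WT libraries (15.3 ± 3.1, SD, n = 10 each; log2 difference -1.35 ± 0.17 SE, limma adjusted p = 9.72e-05). Its groups overlapped over all days, but not within the early days or within the late days. The difference was -1.72 ± 0.16 at the early days and -0.79 ± 0.20 at the late days (limma adjusted p = 0.000116 and 0.0323), the latter lost in 5 of 20 fits without 1 library. Within Tnfr2-/- cultures Tnfrsf1b rose from 3.85 ± 1.02 early to 8.74 ± 1.82 late (1.02 ± 0.18, limma adjusted p = 0.00191). On mouse means the adjusted p over all days was 0.119. The table gives no level per exon, so whether the remaining signal covers the disrupted part of the gene was not tested. In bulk libraries fewer cells of a type and less RNA per cell cannot be told apart, and the study states one approximate read number for all samples and none for each library, so no counting error is given for low values.

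Promoter sequences, the 250 bases before the annotated RefSeq start site on GRCm38.p6, were matched for 8 of the 10 genes, all except Hes1 and Hey1. They were searched on both strands for TGGGAA, the core sequence that RBPJ recognises, and for CACGTG, an E-box that several basic helix-loop-helix factors bind. The E-box was chosen after the promoters had been read. No member promoter held TGGGAA, which occurred in 21.6% of 32817 promoters of the same length, and CACGTG occurred in 1 of 9 member promoters, that of Nrarp, and in 6.02% of all promoters. The promoters of Nrarp, chr2:25180508-25180757 (plus strand), and of Dll4, chr2:119325534-119325783 (plus strand), are shown because these genes moved in opposite directions between the early and the late days. Capitals mark CACGTG, which begins 108 bases before the Nrarp start site and reads the same on both strands.
Nrarp: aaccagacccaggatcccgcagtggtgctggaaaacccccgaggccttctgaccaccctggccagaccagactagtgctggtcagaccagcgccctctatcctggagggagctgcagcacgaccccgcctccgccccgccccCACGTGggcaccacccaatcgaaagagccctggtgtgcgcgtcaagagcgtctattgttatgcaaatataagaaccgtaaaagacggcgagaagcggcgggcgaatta
Dll4: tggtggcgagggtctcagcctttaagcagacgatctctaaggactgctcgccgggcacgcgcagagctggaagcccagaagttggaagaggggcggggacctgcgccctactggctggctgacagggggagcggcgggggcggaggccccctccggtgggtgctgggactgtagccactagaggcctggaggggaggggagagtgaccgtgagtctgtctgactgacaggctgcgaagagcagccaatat
A match is a description of the letters and not evidence of binding, and its absence says only that these letters are not in this window.

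The levels of the 10 genes spanned more than 2 orders of size. The mean over all 20 libraries was 72.2 ± 18.3 (SD) for Hes1, 36.8 ± 16.9 for Jag2, 17.9 ± 5.3 for Jag1, 16.1 ± 2.5 for Notch2, 10.3 ± 4.7 for Notch1, 10.1 ± 3.1 for Nrarp, 8.14 ± 3.90 for Dll1, 2.78 ± 1.30 for Notch3, 1.67 ± 1.95 for Dll4 and 0.218 ± 0.339 for Hey1. Hes1 was above Jag2 in 20 of 20 libraries, and Notch2 above Notch1 in 19 of 20. Neighbours that did not differ beyond their spread were Jag1 and Notch2 (Jag1 higher in 14 of 20 libraries), Notch1 and Nrarp (Notch1 higher in 8), Nrarp and Dll1 (Nrarp higher in 13), Notch3 and Dll4 (Notch3 higher in 16), and Dll4 and Hey1 (Dll4 higher in 16). Among the 3 receptors Notch2 held a median of 55.9% of the summed value, Notch1 32.0% and Notch3 9.75%. Among the 4 ligands Jag2 was highest in 17 of 20 libraries and Jag1 in the other 3. Dll4 held a median of only 1.43% of the ligand sum, with a range from 0% to 11.9%. Hey1, a target gene best known from vessels, was listed at 0 in 12 of 20 libraries and reached at most 1.05.

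**Figure D1:**
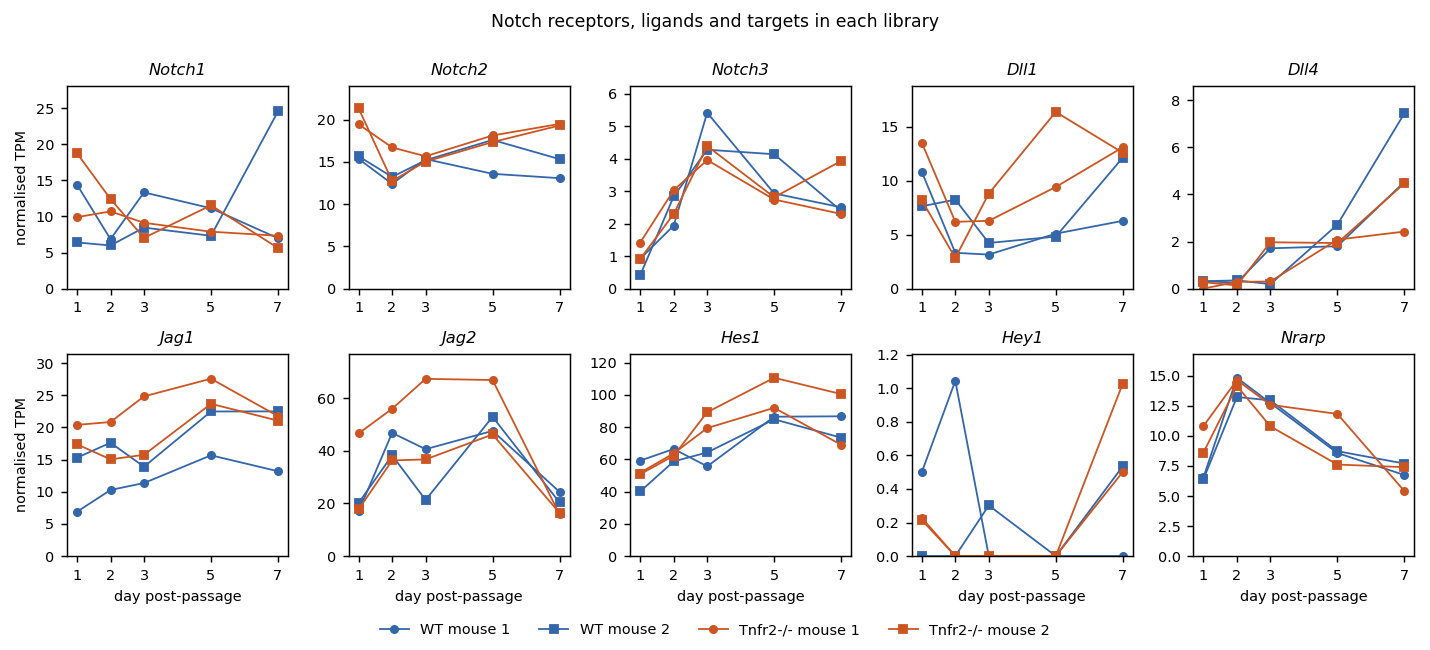
Level of each of the 10 genes (vertical axis, normalised TPM from 0) against day post-passage (horizontal axis), with 1 line per mouse, blue for WT and orange for Tnfr2-/-. Dll4 is highest at day 7 and Nrarp at day 2 in all 4 mice, while Notch1 has 1 WT library at 24.6.

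The first question was how these genes change as a culture matures, and it was asked within each genotype as the late days (5 and 7, 4 libraries) against the early days (1, 2 and 3, 6 libraries). Dll4, a ligand of secretory cells, had the largest log2 difference of the tested members in both genotypes. It passed the limit of a mean of 1 only through its late libraries. Hes1 rose in both genotypes, and Nrarp fell in Tnfr2-/- cultures. In WT cultures 2 of 9 tested members passed an adjusted p under 0.05 ("called"), beside 20.1% of all genes tested. In Tnfr2-/- cultures 3 of 9 were called, beside 20.3% of all genes. The median log2 difference of the 9 members was 0.30 in WT and 0.18 in Tnfr2-/- cultures, and over all genes it was 0.02 in both. With 9 members these shares do not set them apart from other genes. When a whole mouse was left out, which leaves 1 library for each day of its genotype, no member was called in WT without WT mouse 2 and none in Tnfr2-/- cultures without either Tnfr2-/- mouse. The WT call of Hes1 was lost without any 1 of the 4 mice (adjusted p from 0.0533 to 0.0886, limma).

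Dll4 was nearly absent at first. Its level at days 1, 2, 3, 5 and 7 was 0.314, 0.253, 1.71, 1.80 and 4.53 for WT mouse 1, while WT mouse 2 had 0.313, 0.349, 0.189, 2.72 and 7.45. In Tnfr2-/- mouse 1 the values were 0, 0.285, 0.302, 2.08 and 2.42, and in Tnfr2-/- mouse 2 they were 0.269, 0.134, 1.97, 1.94 and 4.47. All 8 libraries of days 1 and 2 lay at or below 0.349 and all 8 of days 5 and 7 at or above 1.80, while at day 3 one mouse of each genotype was already at 1.71 or above. The rise from early to late was 1.69 ± 0.32 (SE) on the log2 scale of value plus 1 in WT (adjusted p = 0.00279, limma) and 1.38 ± 0.32 in Tnfr2-/- cultures (adjusted p = 0.00815, limma). The WT groups did not overlap, whereas in Tnfr2-/- cultures the day 3 library at 1.97 lay above a late library at 1.94. Both calls stood when any 1 of the 20 libraries was left out. On mouse means neither was made (limma adjusted p = 0.0705 in WT and 0.0733 in Tnfr2-/- cultures). Dll4 passed the limit of a mean of 1 only through its late libraries, so its calls are no support for a rise beyond the values listed here. Because values are low, these log2 differences understate the change. The mean went from 0.522 ± 0.586 to 4.12 ± 2.49 in WT and from 0.493 ± 0.732 to 2.73 ± 1.18 in Tnfr2-/- cultures.

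Hes1, the main Notch target of intestinal epithelium, was highest at day 5 in 3 of 4 mice. Over the same days WT mouse 1 had 59.2, 66.4, 55.6, 86.4 and 86.7, while WT mouse 2 had 40.1, 58.7, 64.3, 84.8 and 73.4. In Tnfr2-/- mouse 1 the values were 51.7, 63.7, 79.4, 91.9 and 69.0, and in Tnfr2-/- mouse 2 they were 50.8, 62.2, 89.2, 111 and 100.5. All 4 late WT libraries lay above all 6 early ones, and in Tnfr2-/- cultures the groups overlapped through the 2 libraries of day 3. The log2 rise was 0.54 ± 0.13 in WT (adjusted p = 0.012, limma) and 0.49 ± 0.13 in Tnfr2-/- cultures (adjusted p = 0.0169, limma). The WT call was lost without WT mouse 1 at day 7, and the Tnfr2-/- call without Tnfr2-/- mouse 2 at day 5 or day 7, with adjusted p of up to 0.0593 and 0.098. Each mouse on its own was higher late than early, by between 0.31 and 0.68. Nonoverlap of the early and late groups was found for 2 of 9 members in WT, Dll4 and Hes1, beside 8.89% of all genes, and for 0 of 9 in Tnfr2-/- cultures, beside 16.9% of all genes.

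Nrarp, the other target gene with a measurable level, was highest before Hes1 reached its highest level. Its values were 6.54, 14.9, 12.7, 8.58 and 6.75 for WT mouse 1 and 6.40, 13.2, 13.0, 8.73 and 7.70 for WT mouse 2. Tnfr2-/- mouse 1 had 10.8, 14.7, 12.6, 11.8 and 5.41, while Tnfr2-/- mouse 2 had 8.62, 14.2, 10.8, 7.62 and 7.40. Day 2 was the highest day in 4 of 4 mice, and day 1 or day 7 the lowest. From early to late Nrarp fell by 0.54 (SE 0.15, log2) in Tnfr2-/- cultures (limma adjusted p = 0.0189). In WT cultures the difference was -0.38 ± 0.15 (adjusted p = 0.0844, limma, and 0.0371 with quantile normalisation). The change of the genotype effect was -0.16 ± 0.21 (adjusted p = 0.809, limma), so a difference between the genotypes was not shown. The Tnfr2-/- call was lost when any of 4 libraries was left out, namely those of mouse 1 at days 1, 3 and 7 and of mouse 2 at day 5. The late level was below the early one in 4 of 4 mice.

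The other tested members were not called between late and early days in either genotype on the sum of all transcripts. Jag1 had a log2 difference of 0.54 ± 0.24 in WT (adjusted p = 0.129, limma), and with a fixed term for each mouse, which uses the pairing of days within an animal, its adjusted p was 0.0125. In Tnfr2-/- cultures Jag1 gave 0.30 ± 0.24 (adjusted p = 0.418, limma, and 0.126 with the mouse term). Dll1, the second Delta ligand, gave 0.77 ± 0.28 in Tnfr2-/- cultures (adjusted p = 0.0687) and 0.19 ± 0.28 in WT. Jag2 gave 0.23 ± 0.27 in WT and -0.41 ± 0.27 in Tnfr2-/- cultures (adjusted p = 0.323, limma). On protein-coding transcripts Jag2 was called lower late in Tnfr2-/- cultures (-0.59, adjusted p = 0.0345, limma), and on its leading transcript too (-0.85, adjusted p = 0.006, limma). In WT the protein-coding transcripts of Jag2 were lower late as well, without a call (-0.22, adjusted p = 0.417, limma). On its leading transcript Dll1 was called higher late in Tnfr2-/- cultures (0.70, adjusted p = 0.0395, limma). The receptors Notch1, Notch2 and Notch3 lay between -0.42 and 0.31 in both genotypes, with adjusted p of at least 0.32.

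**Figure D2:**
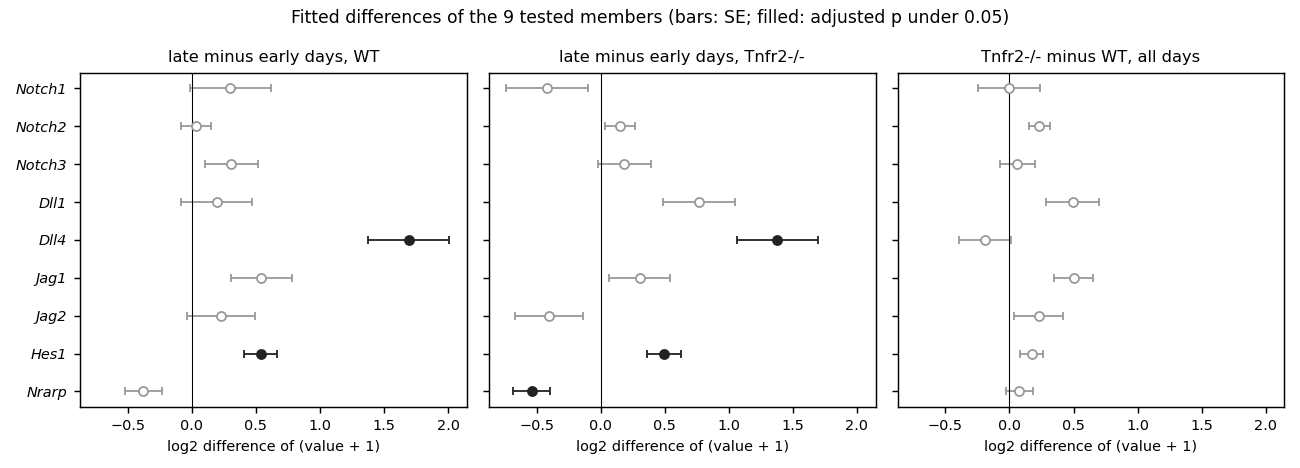
Fitted log2 differences of value plus 1 (horizontal axis) with their SE for the 9 tested members (vertical axis) in 3 comparisons, late minus early in WT, late minus early in Tnfr2-/-, and Tnfr2-/- minus WT over all days. Filled points have an adjusted p under 0.05, which holds for Dll4 and Hes1 in both genotypes, for Nrarp in Tnfr2-/- cultures and for no member between genotypes.

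Averages over early and late days hide changes from 1 collection day to the next, so successive days were also compared over both genotypes, 4 libraries against 4. This comparison was added after the values had been seen. From day 1 to day 2 Nrarp rose from 8.10 ± 2.08 to 14.2 ± 0.7 (log2 difference 0.77 ± 0.16, limma adjusted p = 0.0458), the only member called in this step, where 0.761% of all genes were called. The call was lost in 16 of the 20 fits that left out 1 library, with an adjusted p of up to 0.193. Nrarp and Notch3 did not overlap between the 2 days, beside 7.42% of all genes. Notch3, a receptor best known from pericytes and smooth muscle, went from 0.917 ± 0.411 at day 1 to 2.53 ± 0.50 at day 2 (log2 difference 0.90 ± 0.23, adjusted p = 0.101). Notch3 then reached 4.51 ± 0.63 at day 3, its highest day in 4 of 4 mice, and the 4 values of day 3 lay above those of day 2 (0.65 ± 0.23, adjusted p = 0.337). Notch3 and Nrarp were the 2 of 9 members without overlap in that step, beside 5.78% of all genes, while 0% of genes were called in it by limma, with 1449 genes at an unadjusted p under 0.05.

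From day 3 to day 5 no member was called, beside 2.18% of all genes. The smallest adjusted p belonged to Hes1 (log2 difference 0.38 ± 0.14, adjusted p = 0.182). From day 5 to day 7 no member was called without the mouse term, beside 0.0222% of all genes, but Jag2 was lower at day 7 in every mouse. Jag2 was 17.0, 46.8, 40.6, 47.6 and 24.4 for WT mouse 1 and 20.2, 38.3, 21.3, 52.9 and 20.3 for WT mouse 2. Its values were 46.6, 56.0, 67.3, 66.9 and 15.8 in Tnfr2-/- mouse 1 and 17.8, 36.3, 36.7, 46.2 and 16.4 in Tnfr2-/- mouse 2. The 4 libraries of day 7 all lay below the 4 of day 5, and Jag2 was the 1 member of 9 without overlap in this step, beside 3.67% of all genes. The mean went from 53.4 ± 9.5 to 19.2 ± 4.0 (log2 difference -1.43 ± 0.29, limma adjusted p = 0.114, and 0.0175 with a fixed term for each mouse). In the same step Dll4 gave 0.80 ± 0.35 (adjusted p = 0.399) and Nrarp -0.38 ± 0.16 (adjusted p = 0.388). Jag1 gave -0.18 ± 0.26 (adjusted p = 0.842) there.

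The second question was whether the genes differ between Tnfr2-/- and WT cultures. Over all days no member was called out of 9, beside 7.6% of all genes, by limma on all transcripts. An unadjusted p under 0.05 was found for 3 of the 9 members and for 3023 of the 13539 genes. Jag1, a ligand of the Jagged family, came closest. Its level was 6.89, 10.3, 11.4, 15.7 and 13.2 for WT mouse 1 and 15.3, 17.6, 13.9, 22.5 and 22.5 for WT mouse 2, at days 1, 2, 3, 5 and 7. The values were 20.4, 20.9, 24.8, 27.6 and 21.8 in Tnfr2-/- mouse 1 and 17.4, 15.0, 15.7, 23.7 and 21.1 in Tnfr2-/- mouse 2. WT mouse 1 was the lowest of the 4 mice at every day, and WT mouse 2 lay below both Tnfr2-/- mice at days 1, 3 and 5. The mean was 20.8 ± 4.0 in Tnfr2-/- and 14.9 ± 5.0 in WT libraries (n = 10 each), with a log2 difference of 0.50 ± 0.15 (limma adjusted p = 0.0512).

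Which members passed in this comparison depended on how transcripts were added up and on the scaling. Median-ratio rescaling called Jag1 (adjusted p = 0.0445, limma), and quantile normalisation called Jag1 and Notch2 (adjusted p = 0.0446 and 0.0487, limma). With the protein-coding transcripts of GENCODE alone, Jag1 gave 0.53 (limma adjusted p = 0.011) and Hes1 0.27 (limma adjusted p = 0.0213), so both were higher in Tnfr2-/- cultures. These transcripts averaged 16.4 ± 2.7 in Tnfr2-/- and 11.3 ± 3.4 in WT libraries for Jag1, and 61.9 ± 11.8 and 51.2 ± 10.9 for Hes1. With all transcripts Hes1 gave 0.17 ± 0.09 (adjusted p = 0.273). The transcripts of Hes1 without a coding sequence averaged 15.1 ± 11.4 in Tnfr2-/- and 16.4 ± 9.1 in WT libraries. The protein-coding sum was chosen after the values by transcript were seen, whereas the leading transcript alone had been planned and called the same 2 genes. With all transcripts and the mouse as a correlated block the adjusted p of Jag1 was 0.0864, and with each mouse reduced to 1 mean (2 mice against 2) it was 0.53. The Jag1 call appeared when WT mouse 2 was left out at day 1, 2, 5 or 7, with an adjusted p between 0.0295 and 0.046. Without WT mouse 2 at all days Jag1 gave 0.83 (adjusted p = 0.00228), and without WT mouse 1 it gave 0.18 (adjusted p = 0.514, limma).

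**Figure D3:**
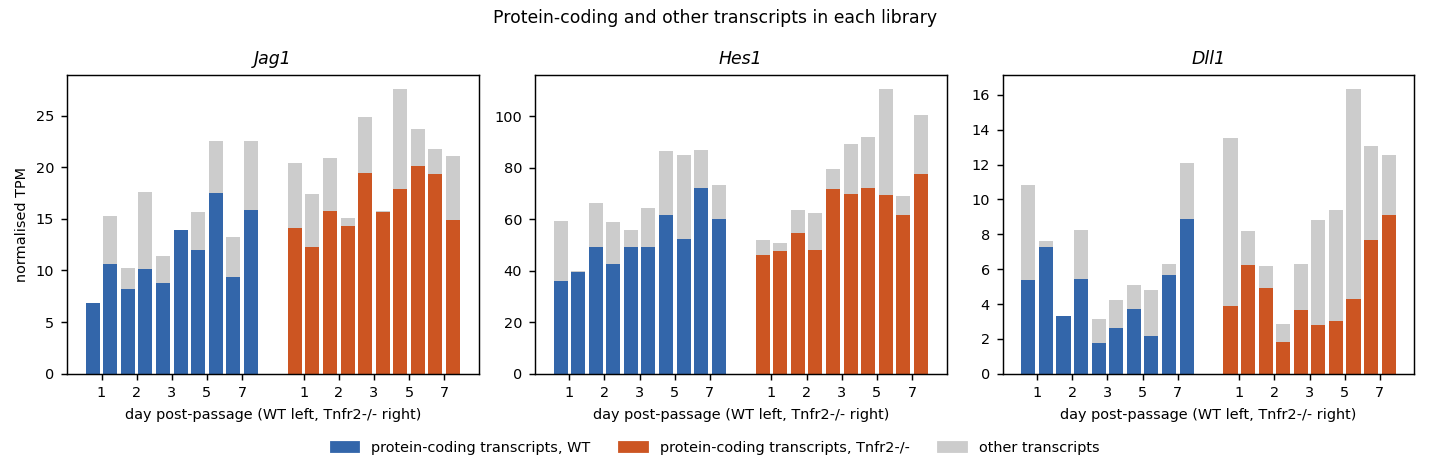
Level of protein-coding transcripts (coloured, blue for WT and orange for Tnfr2-/-) and of all other transcripts (grey) of Jag1, Hes1 and Dll1 in each library, as stacked bars in normalised TPM, ordered by day and mouse. The coloured part of Dll1 has nearly the same mean in both genotypes (4.62 in WT and 4.75 in Tnfr2-/-), and the grey part is larger in Tnfr2-/- libraries (4.97 against 1.95).

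Dll1 shows the same point in the other direction. Its summed level was 10.8, 3.31, 3.15, 5.09 and 6.27 in WT mouse 1 and 7.62, 8.24, 4.22, 4.81 and 12.1 in WT mouse 2, against 13.5, 6.18, 6.27, 9.40 and 13.1 in Tnfr2-/- mouse 1 and 8.17, 2.83, 8.80, 16.4 and 12.6 in Tnfr2-/- mouse 2. Day 2 or day 3 was the lowest day in all 4 mice. The log2 difference between genotypes was 0.49 ± 0.21 over all days (adjusted p = 0.171, limma) and 0.84 ± 0.31 at the late days (adjusted p = 0.124, limma). On protein-coding transcripts it was 0.05 over all days and 0.23 at the late days (adjusted p = 0.901 and 0.652, limma). Protein-coding transcripts made up 70.3% of Dll1 in WT and 48.8% in Tnfr2-/- cultures. The retained-intron transcript ENSMUST00000129395.7 averaged 0.839 in WT and 2.59 in Tnfr2-/- libraries. Such shares rest on a model that divides reads among transcripts with shared sequence. Notch2, Notch3 and Nrarp had all their signal in 1 protein-coding transcript each.

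Split by phase, members stayed under the threshold. At the early days 0 of 9 were called, beside 1.2% of all genes, with Jag1 again of lowest adjusted p (0.60 ± 0.21, limma adjusted p = 0.234). At the late days 0 of 9 were called, beside 6.45% of all genes. There the receptor Notch2 averaged 18.6 ± 1.0 in Tnfr2-/- and 14.9 ± 2.0 in WT libraries (n = 4 each, 0.31 ± 0.13, limma adjusted p = 0.171). Over all days Notch2 gave 0.23 ± 0.08 (limma adjusted p = 0.0882) and its mean was higher in Tnfr2-/- cultures at 5 of 5 days. Notch1 had no shared direction. It gave 0.28 ± 0.28 early and -0.44 ± 0.35 late (adjusted p = 0.743 and 0.497), and the late WT mean of 12.5 ± 8.3 contained the library of mouse 2 at day 7 at 24.6, of which 15.8 lay in transcripts without a coding sequence. Without that library the difference over all days changed from -0.00 to 0.18. Notch3, Dll4 and Nrarp differed by between -0.19 and 0.08 over all days, with adjusted p of at least 0.625. Tested as the change of the genotype effect from early to late, 0 of 9 members were called, beside 0.148% of all genes, and the smallest adjusted p was 0.546 (Jag2, -0.63 ± 0.38). A change in the genotype effect between phases was therefore not detected for any tested member.

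Few other genes of the pathway were called between genotypes. Over all days the calls were 1 of 13 for the nuclear complex, 0 of 17 for ligand and receptor processing and 0 of 9 for endocytic and degradation regulators, beside 7.6% of all genes, and at the late days 1 gene of each of these lists was called, beside 6.45% of all genes. These shares do not set the pathway apart. Of the 13 genes of the nuclear complex, Rbpj, the DNA-binding protein through which all 4 Notch receptors act, was called over all days and at the late days, and it was the 1 gene of that list called in each. Rbpj was 50.5, 21.5, 16.7, 34.8 and 32.2 for WT mouse 1 and 42.2, 29.2, 22.3, 22.1 and 22.8 for WT mouse 2. The level was 41.4, 32.9, 30.9, 50.2 and 71.6 in Tnfr2-/- mouse 1 and 55.0, 29.8, 38.5, 62.5 and 75.2 in Tnfr2-/- mouse 2. At days 2, 3, 5 and 7 both Tnfr2-/- libraries lay above both WT libraries. At the late days Rbpj averaged 64.9 ± 11.2 in Tnfr2-/- and 28.0 ± 6.5 in WT libraries (log2 difference 1.20 ± 0.18, limma adjusted p = 0.00221), and over all days it differed by 0.71 ± 0.15 (limma adjusted p = 0.00985). Both calls stood when any 1 library was left out, and over all days the adjusted p was 0.0296 when mouse entered as a correlated block, against 0.212 for mouse means. Within Tnfr2-/- cultures Rbpj rose from early to late by 0.77 ± 0.17 (limma adjusted p = 0.00593), and within WT it gave -0.04 ± 0.17 (adjusted p = 0.888). The test of that difference between genotypes gave 0.81 ± 0.23 (adjusted p = 0.194).

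Rbpj is expressed in many cell types, and some markers of fibroblasts and of immune cells were also called higher in Tnfr2-/- cultures. Over all days these were 3 of 10 fibroblast markers, beside 7.6% of all genes, and at the early days 1 of 10, Dcn (1029 ± 215 against 588 ± 281), beside 1.2% of all genes, while the early summed fibroblast markers had medians of 4268 in Tnfr2-/- and 4326 in WT libraries. Of 7 tested smooth muscle and pericyte markers 1 was called higher over all days, 1 early and 2 late. Of 10 epithelial markers 2 were called higher over all days, Cdh1 and Epcam, with adjusted p of 0.0553 and 0.0703 when mouse entered as a correlated block. The summed fibroblast markers lay between 4000 and 9683 in late Tnfr2-/- libraries and between 1373 and 4646 in late WT libraries, and 2 of 10 were called higher late in Tnfr2-/- cultures, beside 6.45% of all genes called, with a median of 0.97 over the 10. Dcn, a fibroblast proteoglycan, averaged 1945 ± 503 against 309 ± 125 there (log2 difference 2.74 ± 0.22, limma adjusted p = 2.16e-05). The 4 late libraries of each genotype come from 2 mice, and this fit counts them as separate. Over the 20 libraries the log2 level of Rbpj had a Pearson r of 0.57 with the log2 sum of fibroblast markers and of -0.32 with that of epithelial markers, which share library and day. For the members the r with fibroblast markers ran from -0.47 (Jag2) to 0.54 (Dll1) and with epithelial markers from -0.28 (Dll1) to 0.66 (Jag2). The 7 immune markers summed to between 25.6 and 48.4 in late Tnfr2-/- libraries and between 10.2 and 21.03 in late WT libraries. Of them 2 passed the filter, Cd68 and Csf1r. Both were called higher in Tnfr2-/- cultures over all days, beside 7.6% of all genes called (log2 difference 1.13 ± 0.17 and 0.76 ± 0.20, limma adjusted p = 0.000449 and 0.0285). With mouse as a correlated block the adjusted p of Csf1r was 0.0671. The part of cell composition in any of these differences was not tested. Smooth muscle and pericyte markers summed to between 55.4 and 290.3 in late Tnfr2-/- and between 33.2 and 143.5 in late WT libraries.

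**Figure D4:**
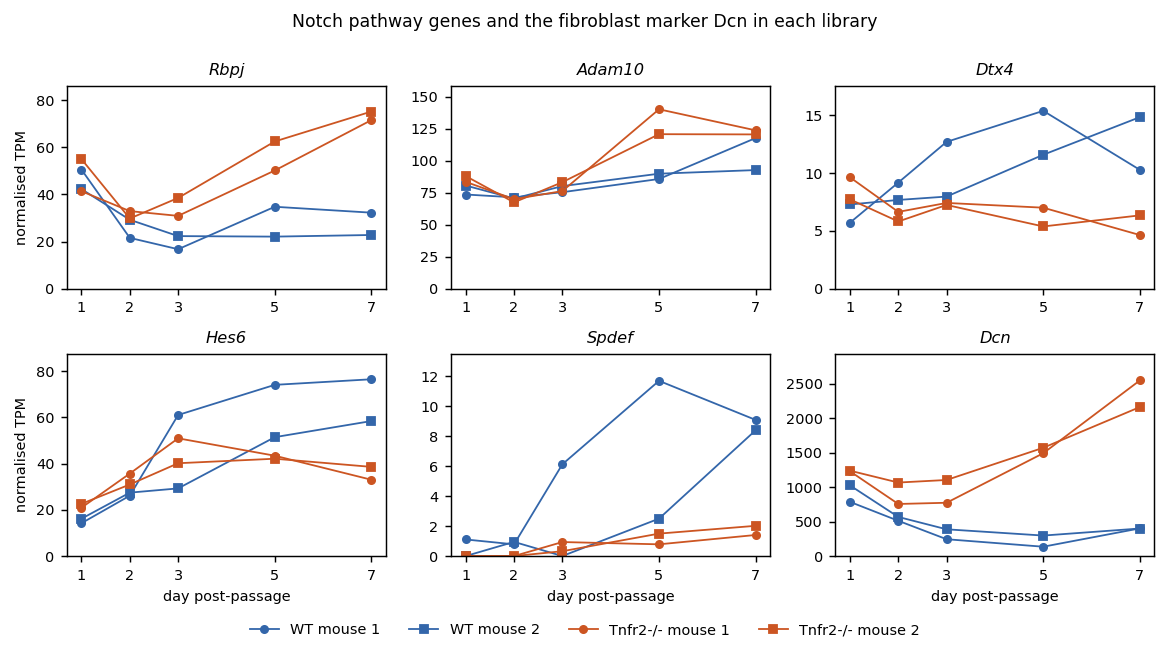
Level (vertical axis, normalised TPM from 0) of Rbpj, Adam10, Dtx4, Hes6, Spdef and the fibroblast marker Dcn against day post-passage (horizontal axis), with 1 line per mouse, blue for WT and orange for Tnfr2-/-. At day 7 both Tnfr2-/- mice lie above both WT mice for Rbpj, Adam10 and Dcn and below them for Dtx4, Hes6 and Spdef.

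Of the 17 tested genes that process ligand or receptor, none was called over all days and 1 at the late days. This was Adam10, the protease of the first receptor cut, at 126 ± 9 in Tnfr2-/- and 96.4 ± 14.4 in WT libraries (log2 difference 0.39 ± 0.10, limma adjusted p = 0.0276). The call was lost when any of 5 of the 8 late libraries was left out, WT mouse 1 at day 5, WT mouse 2 at day 7, Tnfr2-/- mouse 1 at days 5 and 7 and Tnfr2-/- mouse 2 at day 7. From early to late Adam10 rose in both genotypes, by 0.35 ± 0.09 in WT (limma adjusted p = 0.014, lost without WT mouse 1 at day 7 and on protein-coding transcripts, adjusted p = 0.13) and by 0.69 ± 0.09 in Tnfr2-/- cultures (limma adjusted p = 0.000223). Ncstn, a subunit of gamma-secretase, rose in both genotypes too, by 0.49 in WT and 0.25 in Tnfr2-/- cultures (limma adjusted p = 0.00153 and 0.049), the latter in only 6 of 20 fits without 1 library. Lfng, a glycosyltransferase that modifies the receptors, was called in WT (1.31 ± 0.42, limma adjusted p = 0.0413), which 14 of 20 fits without 1 library did not keep. Of the 9 tested endocytic and degradation regulators, Dtx4, an E3 ubiquitin ligase of the Deltex family, was lower in late Tnfr2-/- libraries (5.84 ± 1.04) than in late WT libraries (13.0 ± 2.5, log2 difference -1.03 ± 0.20, limma adjusted p = 0.00862). As for Dcn, the late fits of Adam10 and Dtx4 count the libraries of a mouse as separate.

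Early to late, 3 of these 9 regulators rose in WT (Dtx3l, Dtx4 and Numb) and 2 in Tnfr2-/- cultures (Dtx3l and Fbxw7), beside 20.1% and 20.3% of all genes called. Dtx3l rose by 1.23 ± 0.20 and 1.29 ± 0.20 (limma adjusted p = 0.00113 and 0.000697). Among other receptors and ligands only Notch4 passed the filter on low values, and it rose in Tnfr2-/- cultures from 6.90 ± 4.05 to 17.9 ± 7.7 (log2 difference 1.33 ± 0.35, limma adjusted p = 0.0155, and 0.0631 on protein-coding transcripts). In WT cultures Notch4 gave 0.96 ± 0.35 (adjusted p = 0.0681), and the change of the genotype effect was 0.38 ± 0.49 (adjusted p = 0.811, limma). Notch4 is best known from endothelium. Of the 8 endothelial markers, Egfl7 (mean 10.3), Vwf (1.78) and Pecam1 (1.35) passed the filter and 0 of these 3 were called between late and early days in either genotype, while Cdh5, Kdr, Tek and Emcn were at or near 0. Their part in the Notch4 result was not tested.

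Of the secretory fate factors downstream of Notch, Klf4, Creb3l1 and Foxa3 had means between 14.9 and 41.2, and the lineage factors Atoh1 and Gfi1 were low. Atoh1, the master factor of the secretory lineage, was listed at 0 in 11 of 20 libraries and Gfi1 in 8 of 20, and both fell below the filter. Atoh1 lay between 0.528 and 3.99 in the 4 late WT libraries and between 0 and 0.671 in the 4 late Tnfr2-/- libraries. Spdef, a goblet cell factor, averaged 4.07 ± 4.37 in WT and 0.697 ± 0.749 in Tnfr2-/- libraries (log2 difference -1.14 ± 0.32, limma adjusted p = 0.0402), a call that 13 of 20 fits without 1 library did not make and that gave 0.0816 with the mouse as a correlated block. In WT cultures Spdef rose from early to late by 2.06 ± 0.49 (limma adjusted p = 0.0109, lost without WT mouse 1 at day 5), and Foxa3 and Creb3l4 were called higher late in WT too. These were 3 of the 5 tested secretory factors, beside 20.1% of all genes called. Spdef passed the filter on low values only through its WT level, so its calls are no support for a difference between genotypes. The change of the genotype effect was called for 0 of the 5 tested secretory factors, beside 0.148% of all genes. Hes6, a HES family member that opposes HES1, rose in WT from 29.0 ± 16.9 to 65.1 ± 12.1 (log2 difference 1.28 ± 0.18, limma adjusted p = 0.000571) and gave 0.28 ± 0.18 in Tnfr2-/- cultures (adjusted p = 0.314). The test of that difference gave -1.0 ± 0.25 (limma adjusted p = 0.162). Hes6 was the 1 of 8 further HES, HEY and target genes above the filter, and Hes5 and Hes3 were listed at 0 in all 20 libraries.

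As a description of which genes had day and mouse profiles like those of the members, up to 3 genes with the highest Pearson r of log2 values over the 20 libraries are given for each. For Hes1 these were Sprr2a2 (0.91), Sprr2a3 (0.91) and Ly6d (0.87). For Dll4 they were Lgals2 (0.90), Nox1 (0.90) and Adcy9 (0.89), and for Nrarp Tomm20 (0.90) and Slc7a5 (0.88). Notch3 went with Eef2 (0.90) and Eif4b (0.89), which encode translation factors. Jag1 went with 9130019O22Rik (0.87), Agrn (0.85) and Ifi204 (0.82), Jag2 with Wrb (0.80), Dnaja2 (0.80) and Dlat (0.77), and Dll1 with Mmp10 (0.83), 1810013L24Rik (0.83) and Ifi209 (0.81). Notch2 went with Npy (0.86), Gbe1 (0.81) and AI413582 (0.78), while no gene exceeded 0.70 with Notch1. Among the members themselves the highest r was 0.65, between Jag2 and Nrarp, and the lowest -0.60, between Dll1 and Nrarp. Hes1 and Nrarp, both targets of the signal, had an r of -0.11, and Hes1 and Dll4 one of 0.64.

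By position on GRCm38 (GENCODE M21), Nrarp (chr2:25180758-25183339, plus strand) and Notch1 (chr2:26457903-26516663, minus strand) lie on the same chromosome as Dll4 (chr2:119325784-119335962, plus) and Jag1 (chr2:137081456-137116644, minus). Hes1 lies at chr16:30064384-30067796 (plus), Jag2 at chr12:112907819-112929776 (minus), Notch2 at chr3:98013527-98150361 (plus), Hey1 at chr3:8663359-8667256 (minus), Notch3 at chr17:32120820-32166852 (minus) and Dll1 at chr17:15367354-15376872 (minus). Values cover whole genes, all annotated exons included.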

How the data were processed

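RNA of each culture was made into a strand-specific mRNA library and read single-end, and per the submitters' notes reads were handled with CASAVA, pseudoaligned with kallisto to mm10 transcripts and compared with sleuth. The deposited values are a signal per transcript, TPM divided by a size factor for each library by the authors. Sums ran from 900655 to 1111080 per library, and the study gives an approximate read number for all samples but no depth for each library. The table also holds the authors' p-values, q-values and test statistics, which were not used. Of 113974 lines, 781 repeats were dropped, and 199 transcripts without a symbol (at most 0.0989% of a library) were left out. Values were summed per symbol.

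Groups came from the labels for genotype and day, and the mouse from the sample descriptions. The labels give 2 mice per genotype and mark samples M1 or M2, which is taken to name the same mouse at every day, so that days are paired within a mouse. The data add little to this, since deviations of the same mouse at different days correlated between -0.051 and 0.307 (median 0.090), and the mice of the 2 genotypes are different animals. Log2(value + 1) was fitted with limma 3.58.1 in R 4.3.3 (mean-variance trend, Benjamini-Hochberg over all 13539 genes with a mean of at least 1, threshold 0.05), with day as a factor plus genotype, or as contrasts of 10 group means. The pseudocount of 1 understates changes of low values. The test for normalised values was used because the unit is TPM over a size factor, neither plain TPM nor counts as planned. The fits were tested on simulated data. Alternatives were another pseudocount, no filter, other scalings, other transcript sums, mouse blocks, mouse means, and leaving out each library or mouse. The members and gene lists were chosen with earlier results of these data known. All members are named, with the 3 genes most like each of them (2 of these genes are not reported here), the called genes of each pathway list (at most 4 per comparison), Atoh1, Gfi1, Spdef and Tnfrsf1b.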

Additional observations from a re-analysis of the deposited data

Results flagged for a closer look

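A library was picked out where its gap to the nearest other library of its group, on the log2 scale, was large against the range of the group (Dixon's criterion). Chance alone picks about 1 in 20 groups, and 12 of 150 groups of the members, the called pathway genes and Tnfrsf1b were picked. Dll4 was 1.71 in WT mouse 1 at day 3, against at most 0.349 in the other early WT libraries, and 1.97 in Tnfr2-/- mouse 2 at day 3, against at most 0.302. Hes1 was 40.1 in WT mouse 2 at day 1 (other early WT libraries 55.6 to 66.4) and 73.4 in WT mouse 2 at day 7 (other late WT libraries 84.8 to 86.7). Hey1 was 0.535 in WT mouse 2 at day 7 and 0 in the other late WT libraries. Adam10 was 118 in WT mouse 1 at day 7 (other WT libraries up to 92.6), Ncstn 107 in Tnfr2-/- mouse 2 at day 7 (others up to 96.9) and Fbxw7 11.3 in WT mouse 1 at day 2 (others up to 9.83). Creb3l4 was 0.42 in Tnfr2-/- mouse 1 at day 1, the lowest both of the early and of all Tnfr2-/- libraries. Tnfrsf1b was 21.9 in WT mouse 1 at day 7 and 11.4 in Tnfr2-/- mouse 2 at day 7, each the highest late library of its genotype.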

How the results depend on the processing

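Of 2142 alternative values of 66 member results, 2015 held direction and side of the threshold, 44 lost and 25 gained a call, and 58 changed sign, none of them with a call in either fit; the cause was not tested. With mouse means (2 against 2) members called were 0 in WT and 0 in Tnfr2-/- late against early, and genes called were 7 over all days, 3 early, 0 late, 0 for the change of the genotype effect, and 0 and 0 late against early. With the mouse as a correlated replicate block 545 genes were called over all days (1029 without it), and with the number shared by the genotypes 280 at the early days (162 without). A fixed replicate block for each mouse called 163 genes for the change of the genotype effect (20 without) and 1 member from day 5 to day 7, Jag2. Taking the leading transcript called 623, 90, 534 and 6 genes over all days, early, late and for that change. Late against early in Tnfr2-/- it called 5 members, where the main fit called 3 members and 20.3% of all genes. The share of all genes called there on the leading transcript is not given here. The change of the genotype effect gave 10, 55 and 35 genes with a pseudocount of 0.1, no filter and quantile normalisation. Members called over all days were 1 with median-ratio rescaling (Jag1), 2 with quantile normalisation (Jag1 and Notch2), 2 with the leading transcript, 2 with protein-coding transcripts and 1 with the number block, and from day 1 to day 2 they were 0 with a pseudocount of 0.1.

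Sign changes of uncalled members were, for the genotype effect over all days, Notch1 0.012 and 0.033 (median-ratio, quantile), for the early effect Dll1 -0.28 and -0.076 (leading, protein-coding transcripts), for the late effect Notch3 0.0042 and 0.00395, Nrarp 0.00073 and 0.048 (median-ratio, quantile) and Jag2 0.0016 (protein-coding), and late against early in WT Notch2 -0.048 (quantile), Dll1 -0.035 (leading) and Jag2 -0.36 and -0.22 (leading, protein-coding).

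Leaving out 1 library or 1 mouse, genes called ranged from 146 to 1931 over all days, 14 to 720 early, 19 to 2186 late, 0 to 136 for the change, 1043 to 2893 late against early in WT and 2 to 3430 in Tnfr2-/-, and members called from 0 to 2, 0 to 1 (early, with Jag1 without WT mouse 2), 0 to 3 (WT), 0 to 4 (Tnfr2-/-) and 0 to 1 (day 1 to day 2). For the genotype effect over all days, early and late, the low ends came without a Tnfr2-/- mouse and the high ends without WT mouse 2; a lone library was taken to vary like those of the other groups. Beside these and the Jag1, Jag2, Spdef, Csf1r, Cdh1 and Epcam calls given above, the blocks changed no call of a single gene given in the text. Ranges that crossed 0 were, over all days, Notch1 -0.11 to 0.18, Dll4 -0.39 to 0.0044 and Jag2 -0.10 to 0.56, early Notch1 -0.021 to 0.59 and Dll4 -0.29 to 0.16, late Notch3 -0.16 to 0.14, Hes1 -0.053 to 0.35 and Nrarp -0.16 to 0.12, for the change Notch2 -0.0026 to 0.25, Notch3 -0.36 to 0.11, Dll4 -0.75 to 0.12 and Hes1 -0.22 to 0.14, late against early in WT Notch1 -0.29 to 0.89, Notch2 -0.094 to 0.15 and Dll1 -0.020 to 0.41, and in Tnfr2-/- Notch3 -0.051 to 0.42. Depth limits low values such as Dll4, Notch3 and Hey1, whose counting error is unknown.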
